A study of Oryza sativa with 36 samples.

Results

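The levels of 57194 probe sets in young rice panicles under drought were compared between 4 varieties classed as drought tolerant and 2 classed as drought sensitive. The comparison used every drought-stressed array of the series, which is 18 of its 36 arrays, and left the 18 well watered arrays for a separate contrast. The tolerant group holds 12 arrays, 3 each of the japonica varieties MILT1444, EMATAYIN and HUHAN3 and of the indica variety DOURADOAGULHA. The sensitive group holds 6 arrays, 3 of the japonica variety NIPPONBARE and 3 of the indica variety KHAUMEO. The classes and subspecies are those of the study's table of varieties, and the labels of the arrays give the variety and the treatment. Plants stood in cement plots that were drained late in tillering for the drought treatment, and RNA of panicles 2 cm long was put on Affymetrix rice arrays. The methods describe the 3 arrays of a variety and treatment as independent experiments.

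A young panicle of this size holds the branch and spikelet meristems, the floral organs that they form and the first cells that enter meiosis. Water deficit at this stage acts on a tissue that is dividing and importing sugar, and drought in rice is known to act through abscisic acid, dehydrins and other protective proteins, aquaporins, chaperones and the genes that time flowering. Varieties of the indica and japonica subspecies have long been bred apart and differ in the sequence and the level of many genes. A class of varieties can therefore differ at a gene with or without drought, and the drought-stressed arrays alone do not separate these cases.

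Each value below is a log2 intensity, and each difference is the mean of the 4 tolerant variety means minus the mean of the 2 sensitive variety means, with the standard error (SE) of the fit. A probe set was called where limma gave a p of at most 0.05 after Benjamini-Hochberg adjustment and a difference of at least 2-fold, that is 1 on the log2 scale. The SE rests on the spread between the 3 arrays of a variety, so these calls describe these 6 varieties. Arrays of a variety correlated at 0.987 to 0.994 and arrays of different varieties at 0.930 to 0.983. Markers of panicle and floral organs, of which 9 of 10 were matched, summed to 31073 to 36282 intensity units in tolerant and 32168 to 38554 in sensitive arrays, and none was called. The only seed marker matched, of 5, summed to 69.0 to 153 in tolerant and 56.8 to 176 in sensitive arrays. The upper quartile of the intensities ran from 429 to 445 in NIPPONBARE, from 391 to 421 in the tolerant japonica varieties and from 350 to 378 in the 2 indica varieties. Quantile normalization, which makes the quartiles equal, was run as an alternative, and 6 of 46 called genes with a symbol lost a call under it. The part of the quartiles in the differences was otherwise not tested. RNA of a whole panicle was measured, so fewer cells of a type and less RNA per cell cannot be told apart.

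The tolerant varieties were higher at 636 probe sets (1.11% of those tested) and lower at 693 (1.21%), together 1329 (2.32%). Scaled to the reference genes, the balance turned to 714 higher and 632 lower, and the median of all differences moved from -0.004 to 0.055. The 16 reference genes were themselves not equal between the classes. By their brightest probe sets they ran from -1.20 to 0.77, and TUBB8 was called lower, so counts under this scaling are given as an alternative only. Without the fold threshold, 2982 (5.21%) were higher and 2915 (5.1%) lower. Most of these differences were not shared evenly by the varieties of a class. The lowest array of a class lay above the highest array of the other at 74 called probe sets (0.129% of those tested), 32 higher and 42 lower in the tolerant arrays, or 41 and 35 of 76 when each array was scaled to the reference genes. Among all probe sets, called or not, 165 (0.288%) had no overlap between the 12 and the 6 arrays. When the mean of each variety was taken as 1 replicate, 7 probe sets (0.0122%) were called by limma, 2 higher and 5 lower in the tolerant varieties, while 66 and 99 passed an unadjusted p with the same fold. An exact two-sided permutation test of 4 against 2 varieties allows no p below 0.0667, since there are 15 ways to choose 2 of 6.

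The 7 probe sets called over varieties were nearly switched between the classes. LOC4337003, a gene on chromosome 4 with no described product in the annotation used here, ran from 5.26 to 6.17 with a median of 5.87 in the tolerant arrays and from 10.96 to 11.78 with a median of 11.41 in the sensitive arrays. Its difference was -5.57 ± 0.09 (SE), a level 47.4-fold lower in the tolerant varieties, with an adjusted p of 4.94e-16 over arrays and 0.0082 over varieties. All 12 tolerant arrays lay close together near the median of their arrays and all 6 sensitive arrays were bright. LOC4348062 on chromosome 10, also without a described product, is read by 2 of the 7 probe sets. The first ran from 2.27 to 3.08 in tolerant and from 7.65 to 8.08 in sensitive arrays, a difference of -5.17 ± 0.11. The second ran from 4.33 to 4.99 in tolerant and from 8.80 to 9.23 in sensitive arrays, a difference of -4.39 ± 0.07. Both probe sets of this gene thus separated the same arrays.

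The other 4 of the 7 have no gene in the platform's annotation. Probe sets with no gene are called A to G here, in order of the size of their difference. Probe set A had the widest gap, from 5.09 to 5.64 in tolerant and from 11.04 to 11.99 in sensitive arrays, which is 70.7-fold lower in the tolerant varieties (-6.14 ± 0.07, adjusted p over varieties 0.0036). Probe set D was also lower in them, from 3.62 to 4.83 against 9.37 to 9.75 (-5.59 ± 0.14). The 2 remaining probe sets went the other way. Probe set B ran from 7.97 to 10.26 in tolerant and from 1.99 to 5.21 in sensitive arrays (5.88 ± 0.37, adjusted p over varieties 0.043). Probe set G ran from 7.04 to 7.69 in tolerant and from 3.47 to 4.09 in sensitive arrays (3.51 ± 0.12). The class that was lower at these 7 probe sets had arrays at or below 6.17, a level where an array's median lies between 5.80 and 6.03. A difference in RNA level and a difference in the sequence under the probes cannot be told apart by its intensities.

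**Figure D1:**
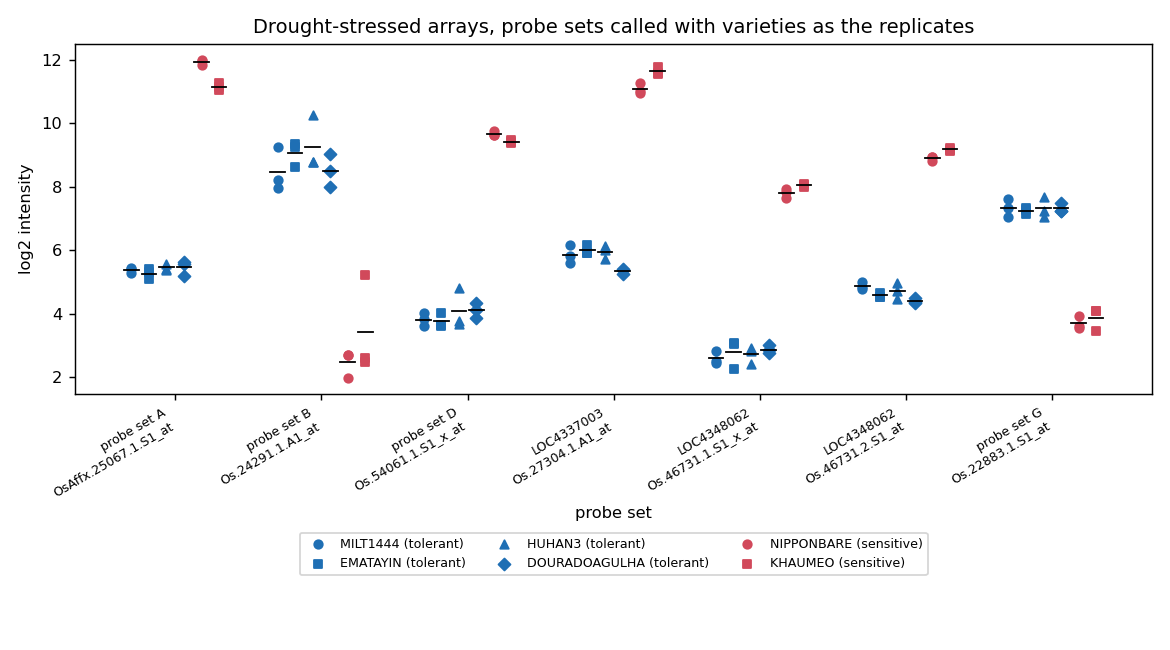
Log2 intensity on each of the 18 drought-stressed arrays for the 7 probe sets called with varieties as the replicates. Points are single arrays, black bars are variety means of 3 arrays, and at each probe set the 12 tolerant (blue) and 6 sensitive (red) arrays do not overlap.

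Among called probe sets with no gene, 3 others had gaps as wide that did not separate the classes. Probe set E (4.69 ± 0.11) and probe set F (4.50 ± 0.13) were bright in MILT1444, EMATAYIN and HUHAN3, with means of 8.77 to 9.12 and 10.08 to 10.11, and dim in DOURADOAGULHA (3.43 and 4.19), as in both sensitive varieties. Probe set C (-5.86 ± 0.11) was at most 4.50 in MILT1444, HUHAN3 and DOURADOAGULHA, while EMATAYIN (12.46) was as bright as KHAUMEO (12.19) and NIPPONBARE (12.32). In each of the 3, at least 1 tolerant variety resembled the sensitive class.

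Well watered plants of the same varieties showed the same 7 gaps. The well watered differences were -5.17 for LOC4337003, -4.83 and -4.06 for LOC4348062, -5.91 for probe set A, -5.03 for probe set D, 6.91 for probe set B and 3.32 for probe set G. These arrays were not used for the drought contrast, but they come from the same varieties and so carry the same genotypes.

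Of the 74 probe sets that were called without overlap, 26 name a single gene, and they belong to 23 genes. Asp1, an aspartic protease, is the only one with a symbol, and its level ran from 5.61 to 6.33 in tolerant and from 6.66 to 7.62 in sensitive arrays (-1.07 ± 0.09, adjusted p = 3.93e-07). A second, dimmer probe set of Asp1 gave -1.23 ± 0.13, but there KHAUMEO alone was high, with a mean of 5.74 against 2.89 in NIPPONBARE. The other 22 genes carry only an identifier and no role is given for them here. LOC4325213 ran from 4.14 to 4.77 in tolerant and from 8.48 to 11.01 in sensitive arrays (-5.34 ± 0.07). LOC4350802 was higher in the tolerant arrays with each of its 2 probe sets, by 1.02 ± 0.07 and 1.35 ± 0.06.

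An absence of overlap did not always mean that both sensitive varieties stood equally far away. LOC4340728 had a difference of -3.37 ± 0.08, with a mean of 11.11 in NIPPONBARE and 5.34 in KHAUMEO against 4.72 to 4.93 in the tolerant varieties. LOC4340976 had 3.40 ± 0.09, with 4.83 in KHAUMEO and 10.78 in NIPPONBARE against 11.07 to 11.49. In the first NIPPONBARE and in the second KHAUMEO made nearly all of the difference. LOC4344869 showed the same within the tolerant class, since DOURADOAGULHA had a mean of 3.46 and the other tolerant varieties 6.83 to 8.12, below both sensitive varieties at 8.42 and 9.42.

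Chromosome 10 held 8 of these 23 genes, and it holds 899 of the 17905 genes on the array. Among them, 5 were near neighbours, in a stretch chosen after the values were seen. LOC4348060, LOC4348062, LOC4348063, LOC4348078 and LOC4348082 lie within 16 consecutive array genes in the order of the RefSeq assembly. LOC4348060 was lower in the tolerant arrays, from 8.06 to 8.93 against 9.74 to 9.88 (-1.20 ± 0.07). LOC4348063, next to LOC4348062, was lower as well, from 6.09 to 6.70 against 7.51 to 7.89 (-1.38 ± 0.08). LOC4348082 was at 5.68 to 6.64 against 6.87 to 8.49 (-1.19 ± 0.19). LOC4348078 differed in the opposite direction, from 6.77 to 8.33 in tolerant and from 3.48 to 4.26 in sensitive arrays (3.48 ± 0.11, 11.1-fold). The 11 other array genes of the stretch were not called. Elsewhere on this chromosome LOC4347978 (1.78 ± 0.17) and LOC4348649 (1.15 ± 0.06 and 2.13 ± 0.12) were higher and LOC4348001 (-1.33 ± 0.12) was lower. Counting all calls, 490 of the 17905 genes were called (2.74%), and the share by chromosome was highest on 11 (53 of 846 genes, 6.26%) and 10 (36 of 899, 4%) and lowest on 3 (1.71%).

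The position of the 2 sensitive varieties was compared with the range of the 4 tolerant variety means at each called probe set. Of the 636 probe sets higher in the tolerant varieties, both sensitive means lay below that range at 115, KHAUMEO alone at 329 and NIPPONBARE alone at 50. Of the 693 lower ones, both lay above it at 148, KHAUMEO alone at 158 and NIPPONBARE alone at 236. Neither sensitive variety lay outside the tolerant range at 142 higher and 151 lower probe sets, where some tolerant varieties resembled the sensitive ones. Calls toward higher levels in the tolerant class thus came more often with KHAUMEO alone outside the range, and calls toward lower levels more often with NIPPONBARE alone.

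**Figure D2:**
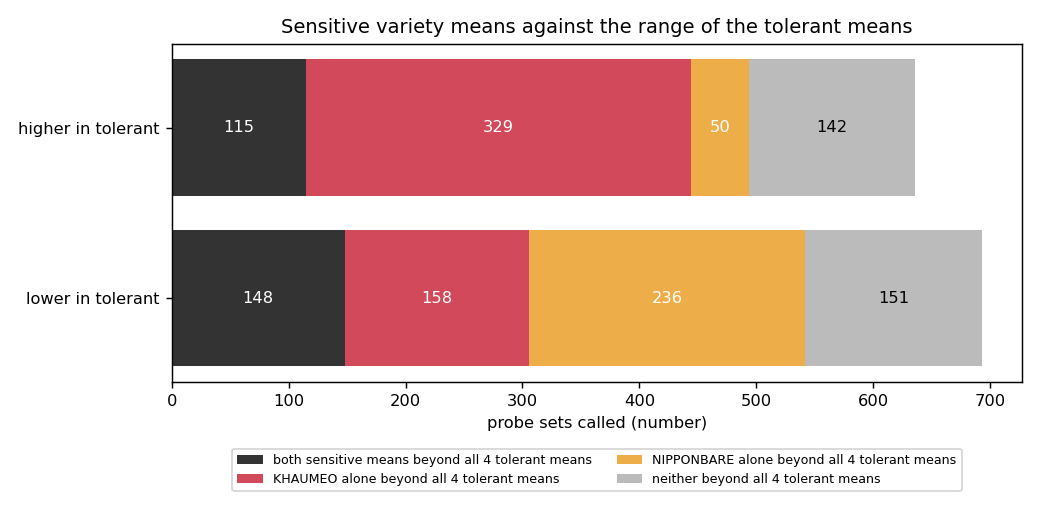
Number of called probe sets, lower or higher in the tolerant varieties, by whether both, only KHAUMEO, only NIPPONBARE or neither of the sensitive variety means lay beyond the 4 tolerant means in the direction of the call. Both sensitive means lay beyond at 148 of the 693 lower and 115 of the 636 higher probe sets.

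Leaving out a variety showed the same dependence. Without any 1 tolerant variety, between 1229 and 1808 probe sets were called and 1007 to 1108 of the 1329 calls stayed. Without KHAUMEO, 2301 were called, 450 higher and 1851 lower, and 693 of the 1329 stayed while 191 were called in the opposite direction. Without NIPPONBARE, 2911 were called, 2082 higher and 829 lower, and 972 stayed while 56 were called in the opposite direction.

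A gene symbol was known for 46 called genes, 20 higher and 26 lower in the tolerant varieties, and these are described next by their roles. They were taken up after their values were seen, beside those that the naming rule gave. None of the 46 was called when varieties were the replicates, and 25 of them lost a call when 50 was added to the intensities. With each gene read by its most different probe set, both sensitive means lay beyond the tolerant range for 11 of the lower genes (C3H40, CIPK5, COPT1, MFT1, NIF2, PIP2-4, RAB25, RFS, TUBB3, TUBB8 and 8bglu27) and for 1 of the higher genes, LA. Asp1, which is not among the 11 by this reading, met it at the brighter probe set given above. KHAUMEO alone lay beyond it for 14 of the 20 higher genes.

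**Figure D3:**
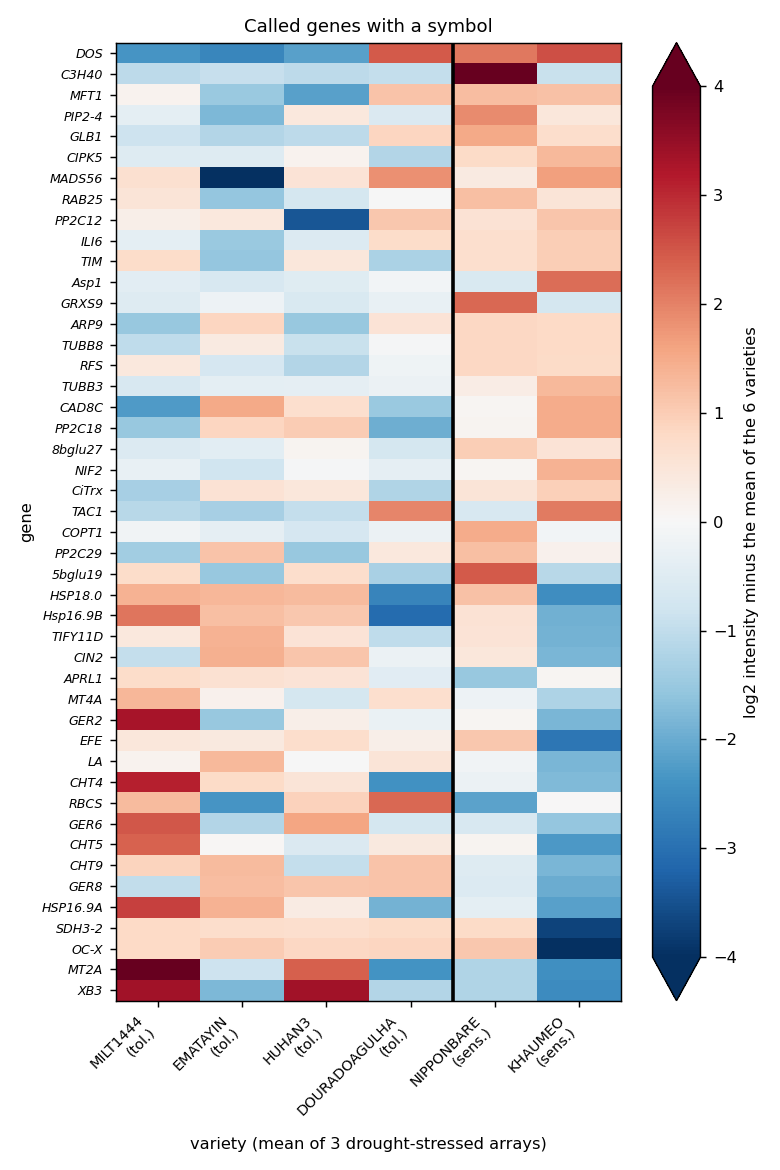
Mean log2 intensity of 3 drought-stressed arrays in each variety, minus the mean of the 6 varieties, for the 46 called genes with a symbol, ordered by the difference between tolerant and sensitive varieties. The black line separates the tolerant from the sensitive varieties, colours saturate at 4, and single varieties such as NIPPONBARE for C3H40 and KHAUMEO for OC-X and SDH3-2 stand out.

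XB3, a ubiquitin ligase that binds the rice immune receptor XA21, had means of 11.05 in both MILT1444 and HUHAN3, 6.51 in DOURADOAGULHA, 5.91 in EMATAYIN, 6.49 in NIPPONBARE and 5.19 in KHAUMEO. Its arrays ran from 5.47 to 11.30 in the tolerant and from 4.28 to 6.75 in the sensitive class, and the difference was 2.79 ± 0.20 (adjusted p = 2.7e-08). The gap was that of 2 tolerant japonica varieties, and the other 2 tolerant varieties overlapped with the sensitive ones. Chitinases, which cleave the chitin of fungal walls, were called higher for 3 of 9 genes and lower for none, where 2.24% of all genes read by their brightest probe set were called in either direction. CHT9 had a difference of 1.74 ± 0.27, CHT5 1.65 ± 0.23 and CHT4 1.50 ± 0.24. KHAUMEO was the lowest variety for CHT9 (3.37) and CHT5 (4.13), while for CHT4 DOURADOAGULHA was lowest (1.92) and MILT1444 highest (7.45). The 9 chitinases had a median difference of 0.12, and the 6 without a call ran down to -1.07.

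Germin-like proteins, which sit in the cell wall and belong to the cupin family, were called higher for 3 of 8 genes and lower for none, against the same 2.24% of all genes. All 8 had differences above 0 with a median of 0.32. GER6 had means of 10.95 in MILT1444 and 10.02 in HUHAN3 against 6.91 in KHAUMEO and 7.82 in NIPPONBARE (1.63 ± 0.18). EMATAYIN (7.27) and DOURADOAGULHA (7.76) were at the level of the sensitive varieties. GER8 was near 10 in EMATAYIN (10.18), HUHAN3 (10.04) and DOURADOAGULHA (10.08) but 7.96 in MILT1444, against 6.93 in KHAUMEO and 8.40 in NIPPONBARE (1.90 ± 0.18), and its 3 probe sets were all called. GER2 had 1.30 ± 0.28 and a mean of 9.32 in MILT1444 alone. Each of these genes therefore had a different set of high tolerant varieties. The germin-like, chitinase, metallothionein, tubulin and small heat shock families were picked after their values were seen.

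Small heat shock proteins, chaperones that hold unfolding proteins, were called higher for HSP16.9A and Hsp16.9B, 2 of 19 genes when each gene was read by its brightest probe set, against 2.24% of all genes. HSP16.9A ran from 6.89 to 12.87 in the tolerant arrays with a median of 10.21 and from 6.34 to 10.48 in the sensitive arrays with a median of 8.30. Its difference was 1.90 ± 0.40 (adjusted p = 0.00365), and the variety means ran from 12.22 in MILT1444, 10.87 in EMATAYIN and 9.83 in HUHAN3 to 9.12 in NIPPONBARE, 7.59 in DOURADOAGULHA and 7.33 in KHAUMEO. The order is japonica above indica, and the classes overlapped. Hsp16.9B had 1.01 ± 0.25 with 5.28 in DOURADOAGULHA and 6.44 in KHAUMEO against 8.93 to 10.48 in the japonica varieties. HSP18.0 had 1.0 ± 0.09 at a dimmer probe set that was near 10 in the 4 japonica varieties and 6.03 and 6.19 in the indica varieties, and its other 2 probe sets gave -0.06 and 0.62. The 19 genes had a median difference of 0.35 under drought, and 15 of them were above 0. Of the 19, 2 passed the adjusted p higher and 2 lower, with Hsp18.8 (-0.37 ± 0.09) among the lower. Of all genes, 12.6% passed it in either direction.

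Among metallothioneins, small proteins that bind metals through cysteines, MT2A and MT4A had probe sets that were called higher. Read by the brightest probe set, MT4A alone of 6 genes was called, against 2.24% of all genes. Of these 6, 4 were above 0, and MT2b (-0.03) and MT2c (-0.25) were below it. MT2A had means of 10.39 in MILT1444 and 8.31 in HUHAN3, 5.09 in EMATAYIN and 3.52 in DOURADOAGULHA, against 3.45 in KHAUMEO and 4.70 in NIPPONBARE (2.75 ± 0.25 at the probe set with the larger difference). A brighter probe set of MT2A was not called (adjusted p = 0.441). MT4A had 1.09 ± 0.16, with KHAUMEO lowest at 6.70. COPT1, a copper transporter, was lower by 1.04 on the log2 scale in the tolerant varieties, and NIPPONBARE was highest at 7.70.

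PIP2-4, an aquaporin of the plasma membrane, ran from 6.96 to 9.95 in the tolerant arrays with a median of 8.46 and from 8.97 to 11.00 in the sensitive arrays with a median of 10.12 (-1.76 ± 0.16, adjusted p = 6.19e-07, 3.38-fold lower). The lowest mean was 7.09 in EMATAYIN and the highest 10.80 in NIPPONBARE, and HUHAN3 (9.32) and KHAUMEO (9.34) met in the middle. It was the only called gene of 25 aquaporins, whose median difference was -0.06, while PIP1-3 was at -0.77 ± 0.19, under the fold threshold. Of the 25, 3 passed the adjusted p higher and 2 lower in the tolerant varieties, where 12.6% of all genes passed it. RAB25, a dehydrin, ran from 7.54 to 11.31 in tolerant and from 9.75 to 11.41 in sensitive arrays (-1.30 ± 0.29, adjusted p = 0.0068). The 9 late embryogenesis abundant and dehydrin genes had a median of -0.39. Of them, 3 passed the adjusted p, all lower in the tolerant varieties, where 12.6% of all genes passed it in either direction. LEA3 was one of the 3 (-0.92 ± 0.26, adjusted p = 0.0295), with a mean of 7.91 in EMATAYIN and 10.24 in NIPPONBARE.

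CIPK5, a kinase regulated by calcineurin B-like calcium sensors, was lower in the tolerant class, from 4.65 to 6.46 with a median of 5.37 against 6.41 to 7.35 with a median of 7.11 (-1.56 ± 0.19, adjusted p = 1.77e-05). The overlap was slight, with the highest tolerant array just above the lowest sensitive one. Protein phosphatases of type 2C include the clade A members that abscisic acid receptors inhibit. All 7 clade A genes on the array had differences below 0 with a median of -0.46, none was called, and 2 passed the adjusted p, among them PP2C30 (-0.78 ± 0.20, adjusted p = 0.0193). Of all 17905 genes, 12.6% passed the adjusted p in either direction and 9192 had a difference above 0. Phosphatases of other clades were called lower for PP2C12 (-1.28 ± 0.09), PP2C18 (-1.18 ± 0.10) and PP2C29 (-1.03 ± 0.28). PP2C12 was near 8 or above in all varieties except HUHAN3, at 4.12, and PP2C18 was low in MILT1444 (5.66) and DOURADOAGULHA (5.24) only. BZIP23, a transcription factor of abscisic acid signalling, was at -0.54 ± 0.11, under the fold threshold. DREB1A, a regulator of cold and drought genes, was 1.23 ± 0.40 higher without passing the adjusted p (0.0637).

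Genes of flowering time and plant form also differed. MFT1, of the family of the florigens, ran from 3.1 to 7.84 in tolerant and from 7.11 to 8.40 in sensitive arrays (-1.79 ± 0.30, adjusted p = 0.000471). DOURADOAGULHA, at 7.58, matched KHAUMEO (7.61) and NIPPONBARE (7.67), and the tolerant japonica varieties were at 4.28 to 6.60. MADS56, a MADS-box regulator of heading, was low in EMATAYIN alone (4.66) and between 10.03 and 11.49 in the other 5 varieties (-1.51 ± 0.12). These are the 2 called genes of 20 in the heading date and clock list, whose median was 0.02. Below the fold threshold, MADS50 (0.68 ± 0.08), which promotes flowering, and MADS15 (0.58 ± 0.05), a gene of the floral meristem, were higher. HD1 (-0.58 ± 0.15), the day length sensor gene of heading, was lower. MADS15 is in the floral organ MADS-box list, where 2 of 19 genes were above 0 and the median was -0.11. In that list 1 gene passed the adjusted p higher and 3 lower, where 12.6% of all genes passed it in either direction. LA, the LAZY1 gene of shoot gravitropism, was higher in the tolerant varieties, which had means of 5.88 to 7.18 against 4.07 in KHAUMEO and 5.76 in NIPPONBARE (1.46 ± 0.18). TAC1, which opens the tiller angle, was at 7.88 in DOURADOAGULHA and 8.02 in KHAUMEO but at 4.59 to 5.28 in the 4 japonica varieties, so its class difference of -1.07 ± 0.12 followed the subspecies. ILI6, a small helix-loop-helix protein, was at 5.83 to 8.06 in the tolerant varieties against 7.99 and 8.31 (-1.25 ± 0.12).

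DOS, a CCCH zinc finger protein that delays leaf senescence, was the largest difference among the genes with a symbol. Its arrays ran from 6.63 to 12.13 in the tolerant and from 11.45 to 12.11 in the sensitive class (-3.51 ± 0.12, adjusted p = 2.52e-12). The 3 tolerant japonica varieties had means of 6.89 to 7.32, while DOURADOAGULHA (11.97) equalled the sensitive varieties. A second and brighter probe set of DOS gave -0.22 (adjusted p = 0.12), so the difference was read by 1 of its 2 probe sets. C3H40, another CCCH zinc finger gene, was at 11.30 in NIPPONBARE and at 5.39 to 5.57 in the other 5 varieties (-2.98 ± 0.11). OC-X was low in KHAUMEO (5.12) and at 10.47 to 10.76 elsewhere (2.61 ± 0.13). SDH3-2, a subunit of mitochondrial succinate dehydrogenase, was at 7.24 in KHAUMEO and at 11.61 to 11.73 elsewhere (2.2 ± 0.06). The last 3 genes are contrasts of a single sensitive variety with the other 5.

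Metabolic and redox genes were called in both directions. RBCS, the small subunit of Rubisco, had 1.59 ± 0.13 at a probe set with 10.18 in DOURADOAGULHA and 5.52 in EMATAYIN, and its other 3 probe sets were between -0.53 and 0.16. EFE, an ethylene-forming oxidase, was low in KHAUMEO (6.80) and at 9.92 to 10.77 in the other varieties (1.34 ± 0.23). CIN2, a cell wall invertase that feeds the filling grain, had 1.03 ± 0.25, with 10.45 in EMATAYIN and 7.20 in KHAUMEO. APRL1 was higher by 1.08 ± 0.14. GLB1, a seed globulin, was at 7.22 to 7.56 in the tolerant japonica varieties and at 9.10 to 9.90 in DOURADOAGULHA, KHAUMEO and NIPPONBARE, with 9.25 in the first of these (-1.66 ± 0.12). The glutaredoxin GRXS9 was at 9.83 in NIPPONBARE and at 6.84 to 7.33 elsewhere (-1.21 ± 0.11). The beta-glucosidases 8bglu27 (-1.15 ± 0.18) and 5bglu19 (-1.02 ± 0.14), the cinnamyl alcohol dehydrogenase CAD8C (-1.18 ± 0.25) and the thioredoxin CiTrx (-1.10 ± 0.06) were lower. TIM (-1.24 ± 0.10), RFS (-1.20 ± 0.35, adjusted p = 0.04) and NIF2 (-1.11 ± 0.20) were lower too. Of these genes, 8bglu27, RFS and NIF2 had both sensitive varieties above the 4 tolerant means.

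Of the cytoskeleton genes, TUBB8, TUBB3 and ARP9 each had a probe set that was called lower in the tolerant varieties. TUBB8, a dim beta-tubulin gene, ran from 2.45 to 4.58 in tolerant and from 4.44 to 5.37 in sensitive arrays (-1.20 ± 0.18). TUBB3 had -1.20 ± 0.15 at 1 probe set and -0.04 and 0.01 at its other 2. Read by the brightest probe set, TUBB8 was the only called gene of 4 beta-tubulins, against 2.24% of all genes. TUBB1 was at -0.01 and TUBB4 at 0.06. ARP9, an actin-related protein, was at 8.02 in MILT1444 and HUHAN3 and at 10.09 to 10.38 in the other 4 varieties (-1.21 ± 0.08). ACT7, an actin gene, was 0.77 ± 0.12 higher in the tolerant varieties, under the fold threshold.

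Across 40 gene lists of pathways and families, 747 genes were matched and 16 of them were called (2.14%), 8 higher and 8 lower. This is close to the share of all 17905 genes read by their brightest probe set, of which 187 were higher and 214 lower (2.24%). The median difference was 0.01 for the list genes and 0.00 for all genes. A called gene was found in 13 lists, and 27 lists had none. The pathogenesis-related list had the highest share, 3 of 16 (18.8%), which are the 3 chitinases, with a median of 0.12. The heat shock protein list had 1 of 23 called and a median of 0.17, and the TIFY repressors of jasmonate signalling had TIFY11D (1.01 ± 0.27) of 17 called and TIFY10C (0.97 ± 0.15) just under the fold. The list of disease resistance and pattern receptors had XB3 as its only call of 11, and PI-D2, a receptor for blast resistance, was at 0.70 ± 0.10. No gene was called among the lists of auxin repressors, cytokinin, DNA replication, antioxidant enzymes, floral organ MADS-box genes, meiosis and cell wall synthesis, among others. Of the genes that the study names, 4 were matched by name and none of these was called, with IAA18 at 0.46 ± 0.08 (adjusted p = 0.000555), IAA26 at 0.55 ± 0.20, MADS26 at -0.20 ± 0.14 and SAPK9 at -0.07 ± 0.22.

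**Figure D4:**
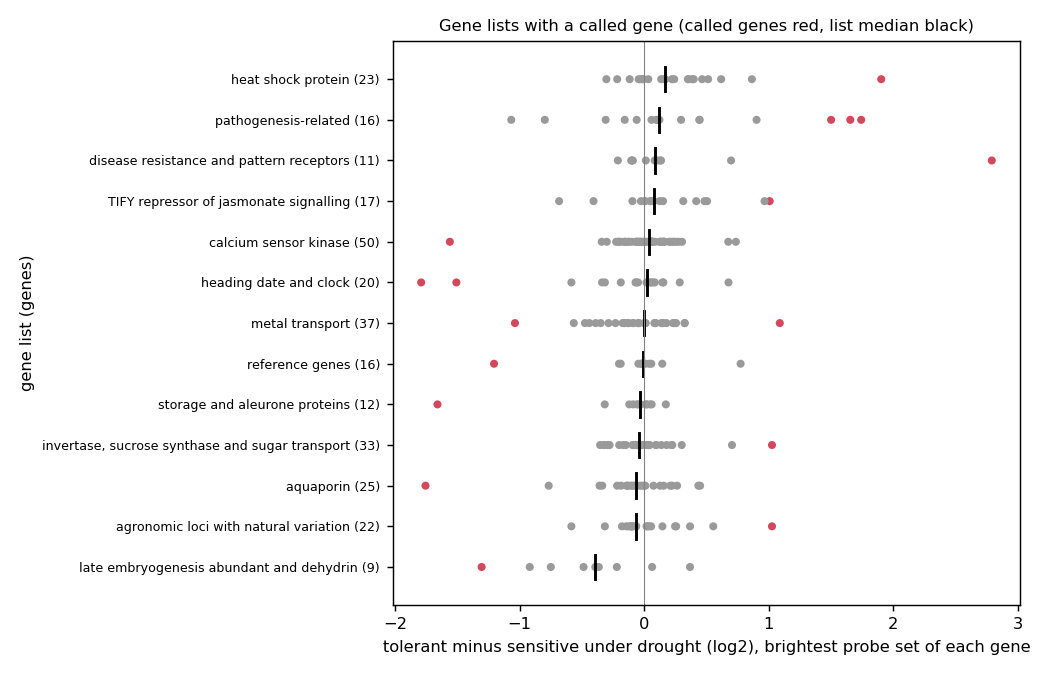
Tolerant minus sensitive difference under drought (log2) for each gene of the 13 lists that hold a called gene, by the brightest probe set of the gene, with the number of genes in parentheses. Red points are called genes, grey points are not called, black bars are list medians, and the median farthest from 0 is that of the late embryogenesis abundant and dehydrin list (-0.39).

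Genes of meiosis and the tapetum, the cell layer that feeds pollen, were read as a sign of developmental stage. The meiosis markers, 4 of 8 matched, summed to 5739 to 10318 in tolerant and 5599 to 10398 in sensitive arrays. The tapetum and pollen markers, 4 of 6 matched, summed to 207 to 1270 and 242 to 1201. Green tissue markers, 2 of 9 matched, summed to 4303 to 9835 in tolerant arrays and to 1636 to 10584 in sensitive arrays, with means of 3008 in KHAUMEO and 10318 in NIPPONBARE. The ranges of the classes overlapped for each tissue, and no marker was called. The sensitive varieties stood at both ends for green tissue, for meiosis (means of 5850 in KHAUMEO and 9795 in NIPPONBARE) and for the seed marker (65.9 and 167). For tapetum and pollen NIPPONBARE was highest at 1131, with KHAUMEO at 261 and the tolerant varieties at 217 to 683. The 13 genes of the tapetum and pollen wall list had a median of -0.21, and BHLH142, a regulator of the tapetum, passed the adjusted p below the fold threshold (-0.66 ± 0.19, adjusted p = 0.0391). Its means were 10.32 in NIPPONBARE and 8.20 to 9.46 in the other varieties. The part of panicle stage in these differences was not tested.

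The class comparison was then made within each subspecies, since the tolerant class is mostly japonica and the sensitive class is split evenly. Within japonica, the 3 tolerant varieties minus NIPPONBARE gave 1776 called probe sets (3.11%), 404 higher and 1372 lower. Within indica, DOURADOAGULHA minus KHAUMEO gave 1517 (2.65%), 754 higher and 763 lower, or 917 and 670 when scaled to the reference genes. Only 126 probe sets were called in the same direction in both, 30 higher and 96 lower (43 and 82 after scaling to the reference genes), which is 7.09% of the japonica and 8.31% of the indica calls. A further 152 were called in opposite directions, 41 of them higher in the tolerant japonica varieties and 111 higher in DOURADOAGULHA. The 2 contrasts share no arrays, and each is a comparison of single varieties on at least 1 side.

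Of the 1329 class calls, 115 were called in the same direction within both subspecies. Among them were 5 genes with a symbol. PIP2-4 was at -2.49 within japonica and -1.01 within indica, CIPK5 at -1.08 and -2.47, and 8bglu27 at -1.26 and -1.25. XB3 was at 2.85 and 1.32, and RBCS at 2.07 and 2.29 for the probe set given above. Another 538 class calls were called within japonica only and 392 within indica only, and 284 in neither. A test of the gap between the 2 subspecies passed the same thresholds at 3151 of all 57194 probe sets and at 925 of the 1329 class calls. Each subspecies has 1 sensitive variety, so a class call made by 1 sensitive variety alone also tends to give such a gap. DOS was among the 925 with -4.50 within japonica and -0.10 within indica, and so was OC-X with -0.20 and 5.41. With a symbol, 2 genes outside the class calls were called in opposite directions. They were OPR12 (-1.06 within japonica and 2.50 within indica), of the family of oxophytodienoate reductases, and PAL (-1.56 and 1.24), of the family of phenylalanine ammonia-lyases. The PAL values are those of 1 probe set, with a class difference of -0.12. Another probe set labelled PAL had a class difference of 0.60.

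The same contrast in well watered panicles called 1400 probe sets (2.45%), 604 higher (1.06%) and 796 lower (1.39%) in the tolerant varieties, or 733 and 644 when each array was scaled to the reference genes. Of the 1329 drought calls, 1095 were also called there in the same direction (522 higher and 573 lower), which is 82.4% of the drought calls and 78.2% of the well watered ones, and none was called in the opposite direction. The sign was the same for 1326 of the 1329. All 74 called probe sets without overlap kept their sign, 66 of them were called and 50 had no overlap among the well watered arrays either. The classes therefore differed under drought mostly at probe sets where the same varieties differed without it.

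**Figure D5:**
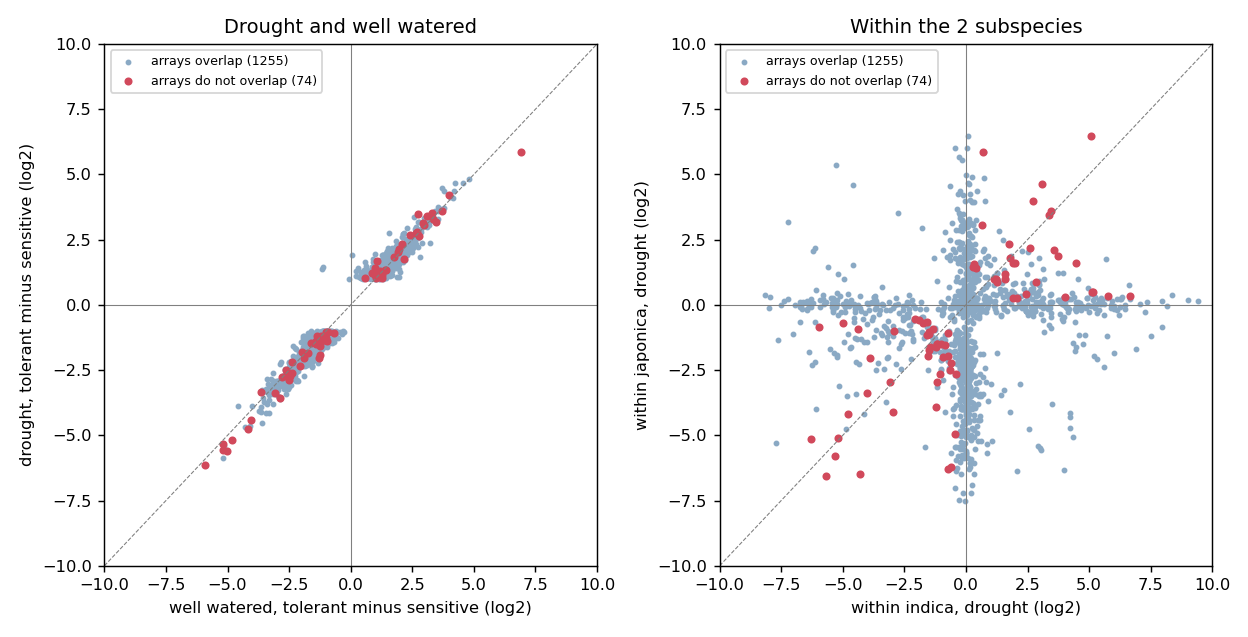
The 1329 called probe sets, with the drought difference against the well watered difference (left) and the difference within japonica against that within indica (right), all on the log2 scale with the dashed line marking equality. Red points are the 74 without overlap between the classes, the left cloud follows the line (1326 of 1329 share the sign) and the right cloud spreads along both axes.

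A direct test of whether the drought response differed between the classes called no probe set in limma, and the smallest adjusted p was 0.150. At an unadjusted p of 0.05, 3590 probe sets passed, and with the 2-fold threshold 95 were higher and 8 were lower in the tolerant varieties. Among the 1329 drought calls, 9 were past both. HSP16.9A was one of these, with a difference of 0.07 in well watered and 1.90 in drought-stressed panicles (1.84 higher, unadjusted p = 0.0029, adjusted p = 0.678). GER6 (1.63 under drought, 0.59 well watered), GER2 (1.30 and 0.23) and MT2A (2.75 and 1.57) were others. The 3 called probe sets that had opposite signs in the 2 treatments were a single one for Hsp16.9B (1.01 and -0.08) and 2 for LOC4348123 on chromosome 10 (1.38 and 1.44 under drought, -1.16 and -1.14 well watered). None of these passed the adjusted p for a difference in response, and they are given as values only. The median of the 19 small heat shock genes was 0.35 under drought and -0.16 well watered, that of the dehydrin list -0.39 and -0.55, and that of the clade A phosphatases -0.46 and -0.52.

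Many calls involved a dim class. The lower of the class means was below the median level of all probe sets (5.92) at 664 of the 1329 calls (49.96%) and at 41 of the 74 without overlap, and both class means were below it at 238. Where a called gene had other probe sets, 56 of 272 were called in the same direction, 194 had the same sign and 5 were called in the opposite direction. For 130 of the 178 called genes with several probe sets no other probe set was called in the same direction. Differences read by a single probe set of a gene, such as those of DOS, TUBB3, RBCS and HSP18.0, are therefore values of that probe set.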

How the data were processed

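RNA of young panicles was measured on 36 arrays of 57381 probe sets. The authors used RMA (affy) for the expression values and limma for their tests, and the sources used here give no versions. What was deposited is an intensity per probe set in linear units, from 1 to 20047 on the 18 drought-stressed arrays, with 52 values at 1, and the step that made RMA values linear is not given in those sources. No pair of arrays held identical values.

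The intensities were log2 transformed without a further pseudocount, and 187 control probe sets were left out. A mean for each variety was fitted with limma 3.58.1 in R 4.3.3 (with the package data.table, version 1.17.8) on the 18 drought-stressed arrays, and for the well watered and response contrasts a mean for each of the 12 groups on 36 arrays. Benjamini-Hochberg adjustment ran over all 57194 probe sets of a contrast. Arrays of a series have no read depth, and their number limits the precision. The fits were tested on simulated data with spread between arrays of a variety only, so spread between varieties was not part of that test.

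Groups came from the labels and classes from the study's table. The platform annotation gave a single gene for 22436 tested probe sets, several for 95 and none for 34663. Of 1711 entries in 41 gene lists, 796 matched a probe set in 40 lists, after 21 wrong matches were set aside. A list gene was read by its brightest probe set. RefSeq names and gene order came from assembly ASM3414082v1, and no coordinates are given because the array was built on another annotation. The members and lists were chosen with earlier results of these data known, some of the lists after a previous analysis of the same files. Genes with a symbol or description were named if they were called without overlap or over varieties (the largest differences in each direction), among the 4 largest differences of a list or named by the study, as were the 3 largest differences in each direction among called probe sets with no gene. The other genes with a symbol, and all genes given only by an identifier, were added after their values were seen.

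Replicate numbers do not pair the arrays. Alternatives were eBayes with trend and robust, log2 of the intensity plus 50, quantile normalization, scaling to 16 reference genes, a filter on dim probe sets, other thresholds, gene means, all 36 arrays, variety as a random block, a subspecies term or mean, a replicate block, and leaving out arrays, replicate numbers or varieties. Drought indices and traits were not analysed here.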

Additional observations from a re-analysis of the deposited data

Results flagged for a closer look

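Among the 6 sensitive arrays, 7 of 126 probe sets examined had a single array far from the others, where chance alone flags about 1 in 20 groups. The gap to the nearest array was 0.627 of the range for TUBB8 and 0.773 for PP2C29, both with a NIPPONBARE array highest. It was 0.774 for probe set B, 0.71 for LOC4348082 and 0.666 for PP2C30, each with a KHAUMEO array highest. It was 0.64 for probe set C and 0.79 for NIA1, a nitrate reductase gene at 0.64 ± 0.20, each with a KHAUMEO array lowest.

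The tolerant minus sensitive difference was unequal within the subspecies (limma, adjusted p of at most 0.05 and 2-fold) for 49 of the 79 called probe sets tested. Among all 57194 probe sets, 3151 met these thresholds. In the values that follow, the difference within indica is subtracted from that within japonica. Opposite signs were found for 12 of the 49. These gaps were -5.61 for OC-X, -4.54 for SDH3-2, -3.70 for EFE, -3.12 for GRXS9, -2.68 for GLB1, -2.05 for PP2C29 and -1.81 for MADS56. They were 3.44 for PP2C18, 2.68 for APRL1, 2.42 for the dimmer probe set of Asp1, 2.37 for CHT4 and 2.06 for Hsp16.9B. In most of these the difference was under 1 on the log2 scale within a subspecies and large within the other.

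With the same sign in both subspecies, lower tolerant levels were wider within japonica by -5.79 for C3H40, -5.60 for LOC4340728, -4.40 for DOS, -2.36 for MFT1, -2.32 for 5bglu19, -2.22 for LOC9268322, -2.17 for LOC4325213, -1.72 for COPT1, -1.48 for PIP2-4, -1.48 for PP2C12, -1.31 for ARP9, -1.26 for LOC4348001 and -1.23 for ILI6. Lower levels were wider within indica for LOC4344869 (5.13), CAD8C (2.87), probe set C (2.4), LOC4343749 (1.54), CiTrx (1.54), TIM (1.48), CIPK5 (1.40), LOC4349944 (1.33) and LOC4337003 (1.14).

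Higher tolerant levels were wider within indica for LOC4340976 (-6.32), LOC4348649 (-3.72 and -1.79 at its 2 probe sets), CHT5 (-2.21), GER8 (-2.15), CHT9 (-2.06), LOC4328254 (-2.01), LA (-1.73) and MT4A (-1.43). They were wider within japonica for probe set F (5.96), probe set E (5.1), MT2A (3.16), XB3 (1.52), LOC4341431 (1.24) and LOC4333612 (1.02). Indica is a single pair of varieties and japonica has a single sensitive variety, so subspecies and variety cannot be told apart here.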

How the results depend on the processing

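The calls rest on 6 varieties, and the choice of replicate mattered most. With variety as a random block (consensus correlation 0.35), 49 probe sets were called in place of 1329, 18 higher and 31 lower, and none of the 46 genes with a symbol kept its call at the probe set given, while Asp1 kept the call of its other probe set. The count was 595 for log2(intensity + 50), 878 above the median level, 5897 without a fold threshold, 382 for gene means, 2301 without KHAUMEO and 2911 without NIPPONBARE. It was 1321 to 1346 with trend and robust, quantile normalization, reference genes or all 36 arrays, and 1222 for the mean of both subspecies. With varieties as the replicates, 7 became 4 above the median level, 165 at an unadjusted p, 2 for gene means, 4 without MILT1444, 25 without DOURADOAGULHA, 147 without KHAUMEO and 202 without NIPPONBARE. The japonica count became 975 with 50 added, 1040 above the median level, 5556 without a fold threshold and 606 for gene means, and the indica count 934 with 50 added, 3367 without a fold threshold and 563 for gene means. The well watered count became 625, 7867 and 466 under the same settings. The response count of 0 became 103 at an unadjusted p.

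The replicate block changed no count by more than 1.5 times, with 1334 drought, 1788 japonica, 1526 indica, 1407 well watered and 0 response calls, but the numbers do not pair the arrays. The deviations of 45 same-numbered pairs correlated at -0.16 to 0.47, 14 of them above 0.1, and 8 of 18 arrays were closest to their own number. Leaving out an array or a replicate number gave 1295 to 1385 drought calls, 1459 to 1969 within japonica, 1317 to 1595 within indica, 6 to 7 over varieties, 1267 to 1521 well watered and 0 to 1 in the response. Calls without overlap numbered 74 to 137.

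Without KHAUMEO the difference turned to -0.21 for OC-X, -0.038 for SDH3-2, -0.64 for EFE, 0.19 for the dimmer Asp1 probe set, 0.30 for TAC1, -0.12 for CIN2, -0.20 for TIFY11D, -0.24 for Hsp16.9B, -0.82 for HSP18.0, -1.02 for PAIR2 and -1.40 for APX5. Without NIPPONBARE it turned to 0.29 for GRXS9 and 0.77 for 5bglu19. As the mean of both subspecies it turned to -0.13 for Hsp16.9B and -1.15 for APX5. These turns are at probe sets called in the main fit or in the alternative. Turns at probe sets called in neither are not listed. Adding 50 ended a call of 25 of the 46 genes with a symbol, among them CIPK5, CHT4, CHT5, CHT9, TUBB8, MT4A, LA, GER2, PP2C12, PP2C18 and both probe sets of Asp1. No named gene called in the main or the alternative fit turned under another scaling. The calls of COPT1, PP2C29, 5bglu19, CIN2, Hsp16.9B and HSP18.0 were lost under quantile normalization. In all 35 alternatives of the array fit LOC4325213, LOC4337003, LOC4348060, LOC4348062, LOC4348078, LOC4350802 (1 probe set) and probe sets A, B, D and G kept their calls. Most of these alternatives leave out an array, a replicate number or a variety, and they do not include the fit with varieties as the replicates. In that fit LOC4325213, LOC4348060, LOC4348078 and LOC4350802 were not called. Signals near the median level limit the rest, and 238 calls lay wholly below it.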

Other observations

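For 5 genes below the fold threshold, chosen after their values were seen, the means of both indica varieties lay below those of the 4 japonica varieties under drought. PAIR2, which pairs homologous chromosomes, had means of 8.38 in DOURADOAGULHA and 8.18 in KHAUMEO and of 9.88 to 11.07 in the 4 japonica varieties, with a class difference of 0.43 ± 0.10. SPO11-4, of the family that starts meiotic recombination, had 10.36 and 10.23 against 11.89 to 12.05 (0.47 ± 0.07). AGO18, an argonaute protein, had 6.16 and 6.35 against 8.31 to 8.95 (0.53 ± 0.07). APX5, an ascorbate peroxidase, had 4.40 and 6.73 against 10.10 to 10.19 (0.29 ± 0.08). CBL9, a calcineurin B-like calcium sensor, had 7.79 and 7.47 against 9.81 to 9.90 (0.68 ± 0.10). All 5 passed the adjusted p below the fold threshold, and no test of the subspecies itself was run on them.

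Among the expansins, which loosen cell walls, EXPB6 (0.88 ± 0.09) and EXPA2 (0.76 ± 0.18) passed the adjusted p with higher levels in the tolerant varieties. The list of expansins and xyloglucan enzymes had 12 of 29 genes above 0 and a median of -0.03. In it 2 genes passed the adjusted p higher and 3 lower, where 12.6% of all genes passed it in either direction. EXPB6 had 6.64 in KHAUMEO and 7.83 to 8.54 in the other varieties. CKX4, an enzyme of cytokinin breakdown, was higher by 0.53 ± 0.09 and MADS22 was lower (-0.58 ± 0.12). HSFA2C, a heat shock factor, was at 8.04 in NIPPONBARE and at 9.49 to 10.44 elsewhere (0.68 ± 0.19). ZEP, of abscisic acid synthesis, was at -0.36 ± 0.10.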
